A study of Homo sapiens with 7 samples.

Results

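Kinesins are motor proteins that use ATP to move along microtubules or to take them apart, and they fall into families named by number. One set works on the mitotic spindle, where it slides microtubules past each other, moves chromosomes and builds the midzone at which the cell is divided. Another set carries vesicles, organelles and protein complexes through the cytoplasm of cells that need not divide. The mRNA of both sets was followed here in human keratinocytes depleted of YAP1 and TAZ, a pair of transcriptional co-activators that the Hippo kinases hold in check and that reach DNA through the TEAD factors.

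Members were taken by gene symbol (KIF or KIFC, a number and at most 1 of the letters A to C), and 36 of the 16686 genes in the expression table qualified. Of these, 12 were set apart by name as mitotic (KIF4A, KIF11, KIF14, KIF15, KIF18A, KIF18B, KIF20A, KIF20B, KIF22, KIF23, KIF2C and KIFC1), and the other 24 formed the comparison group. That second group is not purely one of cargo transport, since it also holds KIF2A and KIF24, which depolymerize microtubules, and KIF7 and KIF26B, which are not cargo carriers. Placement in it was by name and does not show that a member has no part in mitosis. KIF1A, KIF2B, KIF4B, KIF19, KIF25 and KIF26A were not analysed here.

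RNA came from N/TERT2G cells, a keratinocyte line immortalized with telomerase, 48 h after transfection at 8 pmol per cm2 with pooled siRNAs against YAP1 and WWTR1, the gene for TAZ (siYT, n = 4, libraries A to D), or with a non-targeting siRNA (siCON, n = 3, libraries A to C). All libraries come from 1 cell line, and the controls carry transfection reagent and siRNA as well. Values are the deposited signal of polyadenylated RNA, scaled with TMM (the trimmed mean of M values) to near CPM, at roughly 20700000 to 23900000 reads per library. YAP1 was 3.55-fold lower in siYT (244 ± 13.3 to 68.5 ± 5.38) and WWTR1 6.04-fold lower (36.2 ± 1.60 to 5.60 ± 0.66), with no overlap between groups. Of 10 keratinocyte markers 10 were present, with a summed signal, led by KRT5, of 38978 to 40132 in siCON and 42783 to 46415 in siYT (5 called higher, led by KRT15, and 1 lower). Of all genes tested, 14.1% were called higher and 13.2% lower, with calls as defined below. The summed signal of 5 fibroblast markers (led by DCN) was 227 to 256 in siCON and 186 to 193 in siYT (of 4 tested, 1 called higher and 2 lower), that of 2 melanocyte markers (led by MITF, none of the 2 called) 2.69 to 3.23 and 1.98 to 2.86, and that of 5 neuron markers (with TUBB3 highest by the mean of all libraries) 99.4 to 114 and 77.2 to 84.7. Without TUBB3 the neuron sum ran the other way, at 34.3 to 36.5 in siCON and 66.7 to 74.2 in siYT, led by NEFL, which was called higher (2.87-fold). The part of such cells in the results was not tested.

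Mitotic kinesins were mostly higher after the knockdown, and the other kinesins had a median change near that of all genes. Of the 12 mitotic kinesins, all tested, 9 were called higher in siYT, 0 lower and 3 were not called, where a call needed an adjusted p under 0.05 by limma and a change of at least 1.5-fold. Across the 13072 genes tested, those with a mean signal of at least 1, 27.4% were called, 14.1% higher and 13.2% lower. By limma's unadjusted p under 0.05, too, 0 mitotic kinesins were lower. Of the 24 other kinesins, 18 passed the filter on low values, and 2 were called higher (KIF24 and KIF16B), 1 lower (KIFC3) and 15 neither. The median log2 fold change was 1.24 over the mitotic kinesins and 0.02 over the other kinesins, beside 0.003 over all genes tested. Since whole cultures were measured, more cells in mitosis and more RNA per cell cannot be told apart. The study reported reduced proliferation of N/TERT2G cells after siRNA against YAP1 and TAZ, by a luminescence assay. Its relation to these RNA values was not tested.

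**Figure D1:**
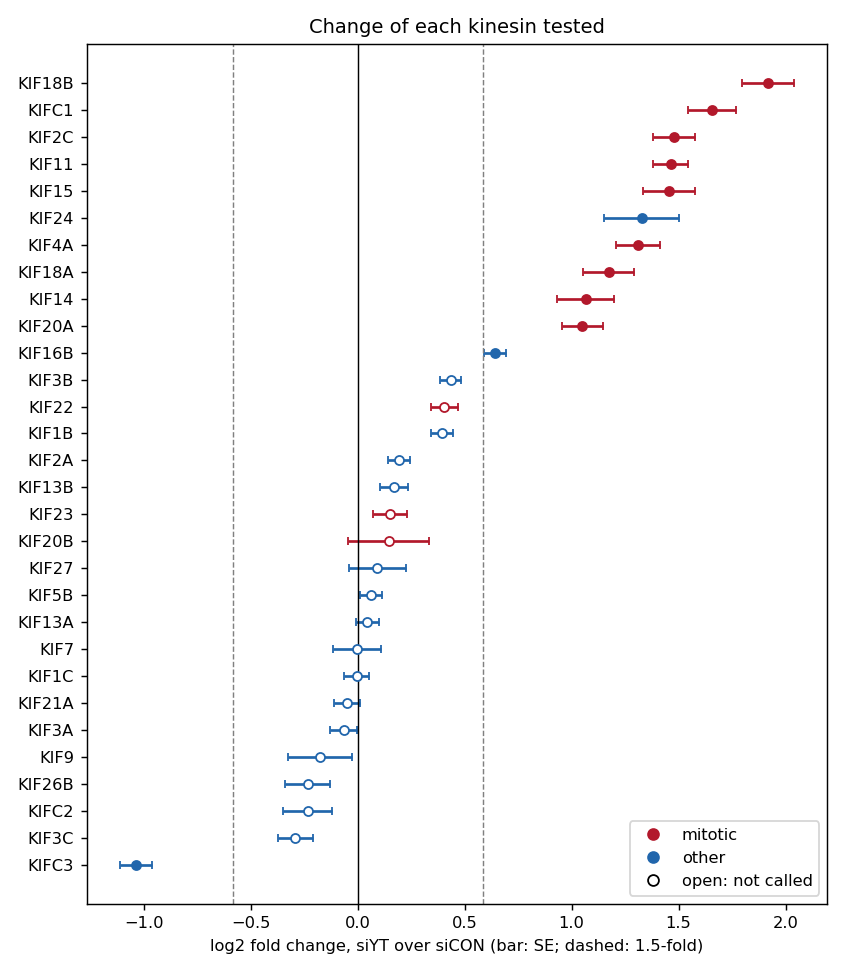
Log2 fold change of siYT over siCON for the 30 kinesins tested, 12 mitotic in red and 18 other in blue, with bars for the SE and dashed lines at 1.5-fold. Filled points were called: 9 mitotic kinesins at 1.05 to 1.92, KIF24 and KIF16B among the others at 1.33 and 0.64, and KIFC3 alone to the left at −1.04.

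Many genes used in mitosis share short promoter elements. The cell cycle genes homology region (CHR, TTTGAA) is bound by the DREAM and MuvB complexes, and CCAAT boxes are bound by NF-Y. Promoters of 300 bases (250 before to 50 after the gene start, from RefSeq on GRCh38.p14) matched 29 of the 36 kinesins and were searched on both strands for TTTGAA, for CCAAT and for GGAATG, a letter string that TEAD factors bind. In the kinesin promoters no match of one motif shared letters with a match of another. TTTGAA was present in 9 of 12 mitotic kinesin genes and in 1 of 17 other kinesin genes, KIF5B. Counted by promoter, as some genes have several, it was in 69.2% of 13 mitotic and 4.35% of 23 other kinesin promoters, and in 15.2% of all 35116 promoters of that length.

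CCAAT was in 76.9% of the mitotic, 39.1% of the other and 34.6% of all promoters, and GGAATG in 23.1%, 21.7% and 14.0%. Both TTTGAA and CCAAT were in 61.5% of mitotic kinesin promoters, 4.35% of the other kinesin promoters and 5.90% of all promoters. Among the 9 mitotic kinesins called higher, 7 held TTTGAA, each between 35 bases before and 5 bases after the annotated start. These are matches of letters and not sites shown to be bound.

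**Figure D2:**
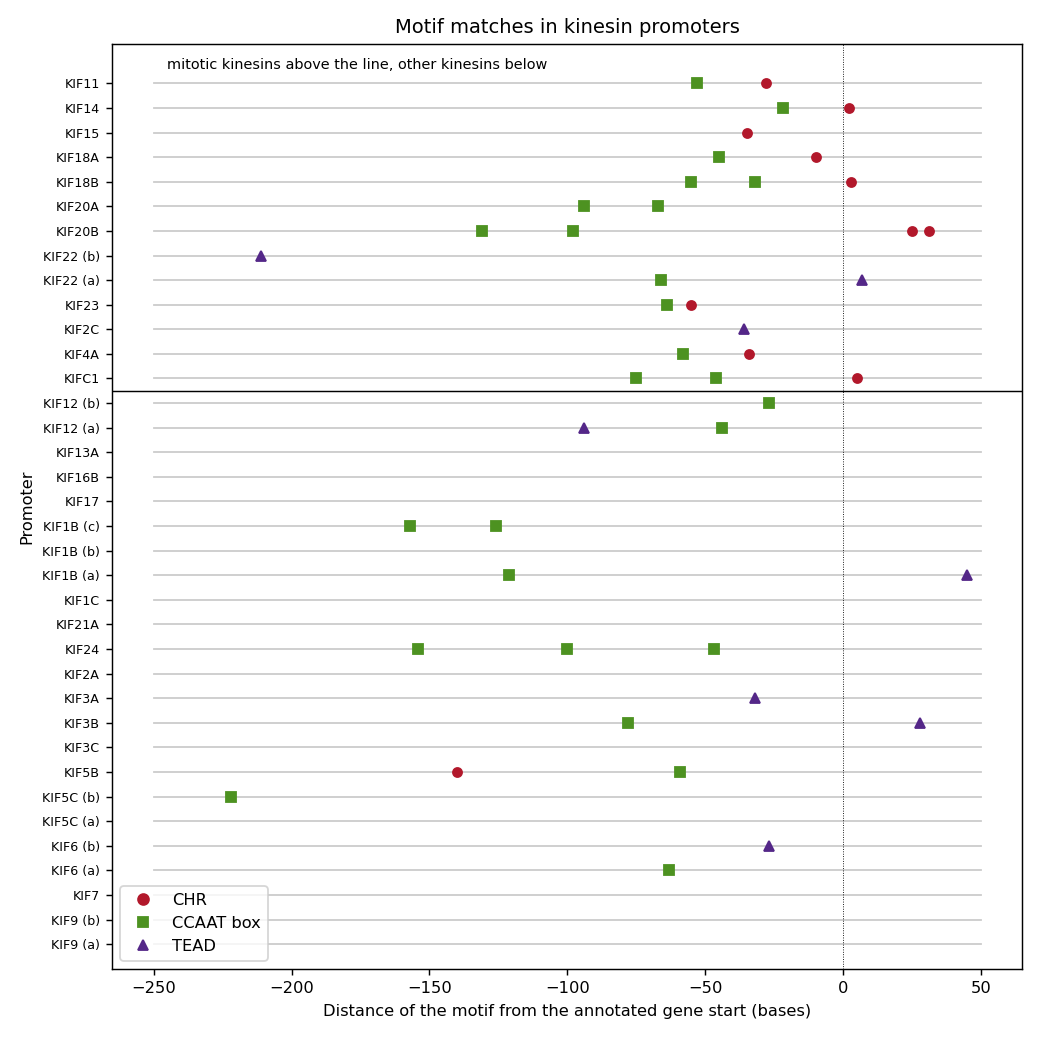
Positions of TTTGAA (CHR), CCAAT and GGAATG (TEAD) matches, on either strand, relative to the annotated start in 13 promoters of mitotic kinesins (above the line) and 23 of other kinesins (below), with letters in brackets for genes with several promoters. Red points for TTTGAA lie close to the start in 9 mitotic genes, and the single red point below the line is KIF5B at −140.

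A few of these promoters show the range. KIF18B, KIFC1 and KIF11 are the mitotic kinesins with the largest change, the next largest and the highest siYT signal among those called, and each holds both elements. KIF20B holds TTTGAA in tandem and was not called. KIF2C was called and had no exact match to TTTGAA or CCAAT, although GGAATG lies at −36. KIF24 is from the other group, was called and matched CCAAT but not TTTGAA. Variants of these strings were not searched, so a missing match does not show that an element is absent. Capitals mark TTTGAA and CCAAT or their reverse complements, and each sequence runs 5′ to 3′ on the strand of its gene: KIF18B from chr17:44947724-44948023 (minus), KIFC1 from chr6:33391573-33391872 (plus), KIF11 from chr10:92592880-92593179 (plus), KIF20B from chr10:89701340-89701639 (plus), KIF2C from chr1:44739587-44739886 (plus) and KIF24 from chr9:34329219-34329518 (minus).
KIF18B: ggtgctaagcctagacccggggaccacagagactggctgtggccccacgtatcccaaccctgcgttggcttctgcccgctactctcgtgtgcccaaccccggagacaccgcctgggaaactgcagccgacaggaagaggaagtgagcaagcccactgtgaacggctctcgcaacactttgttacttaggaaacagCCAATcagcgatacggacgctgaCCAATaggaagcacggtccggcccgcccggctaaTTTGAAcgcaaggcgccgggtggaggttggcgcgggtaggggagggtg
KIFC1: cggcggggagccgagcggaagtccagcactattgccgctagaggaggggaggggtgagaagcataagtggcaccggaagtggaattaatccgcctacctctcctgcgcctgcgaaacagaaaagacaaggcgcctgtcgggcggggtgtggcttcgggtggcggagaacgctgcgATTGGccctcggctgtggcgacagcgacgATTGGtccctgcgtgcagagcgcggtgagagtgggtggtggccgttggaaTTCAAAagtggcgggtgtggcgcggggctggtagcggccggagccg
KIF11: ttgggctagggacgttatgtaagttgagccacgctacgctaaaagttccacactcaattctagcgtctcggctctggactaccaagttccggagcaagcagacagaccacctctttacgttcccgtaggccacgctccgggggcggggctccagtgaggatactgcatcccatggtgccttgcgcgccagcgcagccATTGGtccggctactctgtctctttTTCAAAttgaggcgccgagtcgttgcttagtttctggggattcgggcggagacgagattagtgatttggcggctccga
KIF20B: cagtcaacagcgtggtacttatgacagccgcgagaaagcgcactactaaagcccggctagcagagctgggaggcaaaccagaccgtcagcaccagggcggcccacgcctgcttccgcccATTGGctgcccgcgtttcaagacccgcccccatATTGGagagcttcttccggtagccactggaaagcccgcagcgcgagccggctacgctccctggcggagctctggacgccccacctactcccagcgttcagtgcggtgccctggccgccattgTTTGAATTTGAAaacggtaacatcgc
KIF2C: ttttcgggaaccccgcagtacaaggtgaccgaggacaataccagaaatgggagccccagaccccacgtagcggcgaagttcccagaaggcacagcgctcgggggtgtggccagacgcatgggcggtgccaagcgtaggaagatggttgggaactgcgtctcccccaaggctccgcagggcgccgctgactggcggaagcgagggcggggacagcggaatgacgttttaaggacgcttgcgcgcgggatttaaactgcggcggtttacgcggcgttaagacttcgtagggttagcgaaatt
KIF24: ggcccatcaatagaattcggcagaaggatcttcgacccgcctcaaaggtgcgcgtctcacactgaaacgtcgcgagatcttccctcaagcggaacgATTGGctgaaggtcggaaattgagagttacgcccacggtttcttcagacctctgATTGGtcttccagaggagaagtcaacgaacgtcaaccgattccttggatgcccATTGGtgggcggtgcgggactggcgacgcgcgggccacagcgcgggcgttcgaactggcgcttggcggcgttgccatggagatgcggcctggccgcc

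In KIF18B the 2 CCAAT boxes lie at −55 and −32 and TTTGAA at 3 (counted in bases with the start as 1), and in KIFC1 the boxes lie at −75 and −46 and TTTGAA, on the opposite strand, at 5. KIF11 has its box at −53 and TTTGAA at −28. In KIF20B both copies of TTTGAA lie after the start, at 25 and 31, and its boxes are at −131 and −98. KIF2C, KIF20A, KIF22, KIF24 and KIF16B had no match to TTTGAA in these windows.

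The motors that set up the bipolar spindle, KIF11, KIF15 and KIFC1, rose. KIF11, the kinesin-5 motor that pushes antiparallel microtubules apart (hg19 chromosome 10, 94353043 to 94415150), read 7.61, 7.56 and 8.46 in siCON A, B and C, against 23.2, 24.9, 20.9 and 21.5 in siYT A, B, C and D. Its groups were far apart, and the difference was 2.76-fold (log2 fold change 1.46 ± 0.08 SE, limma adjusted p = 3.63e-10). KIF15, a kinesin-12 that can stand in for KIF11 once the spindle is bipolar (chromosome 3, 44803209 to 44914868), was low, at 1.80, 1.48 and 1.98 in siCON and 5.10, 5.92, 6.15 and 5.48 in siYT. These are approximately 32 to 158 reads per library, and the rise of 2.74-fold (1.46 ± 0.12 SE, adjusted p = 3.70e-08) again left no overlap.

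KIFC1, a kinesin-14 that walks towards minus ends, focuses the poles and clusters centrosomes (chromosome 6, 33359313 to 33377701), was at 4.59, 3.50 and 4.41 in siCON, against 15.8, 15.7, 12.7 and 12.6 in siYT. It was the mitotic kinesin with the next largest change after KIF18B, 3.15-fold (1.65 ± 0.11 SE, adjusted p = 3.57e-09), and its siYT libraries fell into a higher pair, A and B, and a lower pair, C and D. Of the annotated exonic bases of KIFC1, 14.0% overlap RPL12P1, a ribosomal protein pseudogene on the opposite strand, whose reads cannot be told apart here.

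Both tested members of kinesin-8 rose. KIF18B, a kinesin-8 that limits astral microtubules (chromosome 17, 43002077 to 43025082), was at 1.58, 1.20 and 1.76 in siCON and 7.14, 6.90, 7.59 and 6.58 in siYT. Every siYT value was far above the highest siCON value, and the fold was the largest of the 30 kinesins tested, 3.77 (1.92 ± 0.12 SE, adjusted p = 1.75e-09). With approximately 26 reads in its lowest library its fold depended on the pseudocount, from 1.37 with 2 to 2.16 with 0.1 on the log2 scale. KIF18A, its sister in kinesin-8, which damps the oscillation of chromosomes at the metaphase plate (chromosome 11, 28042167 to 28129855), was at 2.34, 2.21 and 2.20 in siCON and 5.89, 6.63, 4.82 and 5.63 in siYT. Its siCON values were almost equal and the siYT values more scattered but all higher (2.26-fold, 1.17 ± 0.12 SE, adjusted p = 3.33e-07).

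KIF2C, or MCAK, a kinesin-13 that does not walk but removes tubulin from microtubule ends and so releases wrong attachments at kinetochores (chromosome 1, 45205490 to 45233439), was at 5.04, 5.21 and 4.81 in siCON and 15.6, 17.2, 13.4 and 13.6 in siYT. This was a rise of 2.79-fold (1.48 ± 0.10 SE, adjusted p = 2.31e-09), with siYT A and B above C and D.

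The chromokinesins, which ride on chromosome arms, differed in extent. KIF4A, which with PRC1 shapes the central spindle (chromosome X, 69509879 to 69640682), was at 3.60, 4.01 and 3.92 in siCON and 9.38, 11.9, 10.4 and 9.47 in siYT, a 2.48-fold rise (1.31 ± 0.10 SE, adjusted p = 1.82e-08). KIF22, which pushes chromosome arms away from the poles (chromosome 16, 29802040 to 29816706), was the most abundant mitotic kinesin and moved less, from 18.9, 20.6 and 20.8 in siCON to 26.7, 26.8, 27.5 and 26.1 in siYT. Its groups did not overlap and its adjusted p was 3.21e-05, but at 1.32-fold (0.41 ± 0.06 SE) it stayed under the fold threshold. KIF4A has a near-identical intronless copy, KIF4B, so its reads may be shared between the genes.

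Kinesins of the midzone and of cytokinesis were divided. KIF20A, which brings the chromosomal passenger complex to the midzone (chromosome 5, 137514408 to 137523404), was at 6.21, 5.99 and 7.45 in siCON and 14.9, 15.1, 13.6 and 12.7 in siYT, 2.07-fold higher (1.05 ± 0.10 SE, adjusted p = 9.59e-08). KIF14, which works with citron kinase at the midbody (chromosome 1, 200520628 to 200589862), was more scattered in siCON, at 2.84, 4.75 and 3.84, than in siYT, at 8.09, 8.63, 7.66 and 9.14. The groups were still apart, by 2.09-fold (1.07 ± 0.13 SE, adjusted p = 3.26e-06).

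KIF23, or MKLP1, the motor subunit of centralspindlin (chromosome 15, 69706585 to 69740764), was at 12.7, 11.8 and 11.7 in siCON and 13.8, 14.0, 14.0 and 12.2 in siYT. The siYT D value lay among the siCON values, and the difference did not pass (1.11-fold, 0.15 ± 0.08 SE, adjusted p = 0.0995). RACGAP1, the other subunit of centralspindlin, named here for that role after its values were seen, was at 17.6, 17.9 and 19.8 in siCON and 31.3, 31.0, 24.3 and 28.7 in siYT, and was called (1.54-fold, 0.63 ± 0.09 SE, adjusted p = 8.31e-06). Whether the change of KIF23 differed from that of RACGAP1 was not tested.

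KIF20B, or MPP1, which acts late in cytokinesis (chromosome 10, 91461367 to 91534700), was the kinesin with the largest SE of the 30 tested. It was at 9.59, 10.1 and 13.3 in siCON, against 12.2, 8.35, 11.0 and 19.0 in siYT. The highest and the lowest of the 7 values were both siYT libraries, the difference did not pass (0.15 ± 0.19 SE, adjusted p = 0.507), and without siYT D its log2 fold change was −0.06. Among the 10770 genes whose mean reached 5, KIF20B ranked 6 by the excess of siYT D over the other siYT libraries (0.84 on the log2 scale). The 4 genes at the head of that order, chosen after their values were seen, were AKAP9, GOLGA4, ANKRD12 and CEP290, with an excess of 1.10 to 1.24. Each had siYT B as its lowest siYT library and siCON C as its highest siCON library, as did KIF20B.

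CENPE, a kinetochore kinesin named outside the KIF series, also peaked in siYT D and siCON C, at 2.97, 2.44 and 4.45 in siCON and 4.52, 2.90, 4.08 and 9.18 in siYT, and did not pass (0.50 ± 0.26 SE, adjusted p = 0.0978). The annotated transcripts of KIF20B, CENPE and those 4 genes are 6441 to 12476 bases long and hold 34.3% to 38.8% G and C, against a median of 48.2% over 11547 tested genes with a sequence. The direct neighbours of KIF20B in that order, C10orf10 (rank 5) and GRB7 (rank 7), are shorter, at 2120 and 2233 bases. GRB7 holds 60.1% G and C, and no such value was obtained for C10orf10. ANKRD26, GCC2 and TRIP11 (ranks 8 to 10) are 6775 to 9996 bases long and hold 36.4% to 37.4%. These 5 were also named after their values were seen. KIF20B had the lowest G and C content of the 30 kinesins tested, and the part of base composition and length in its spread was not tested.

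**Figure D3:**
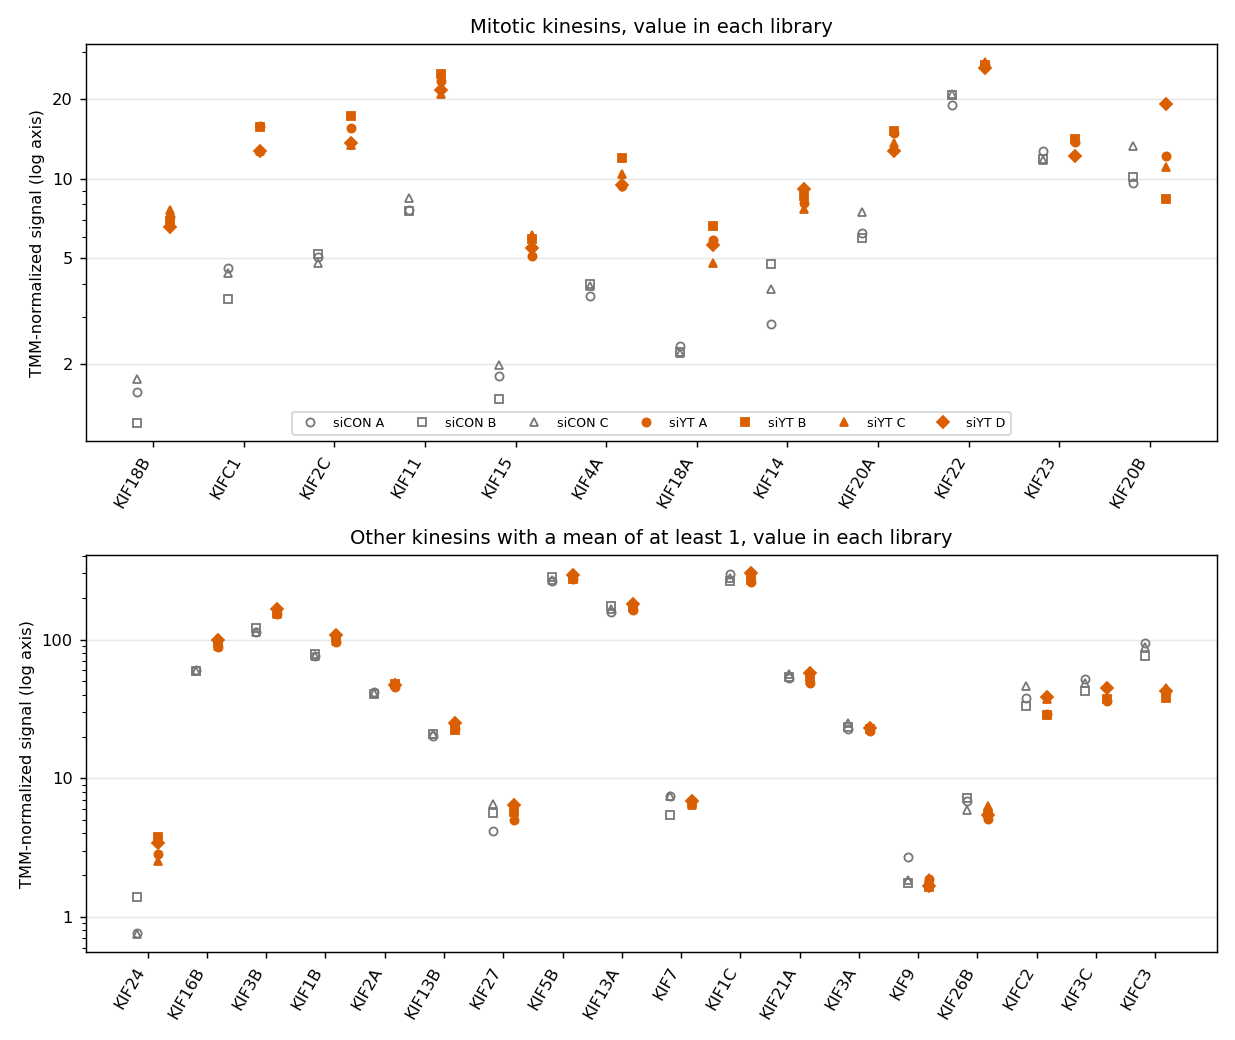
TMM-normalized signal (log axis) of 12 mitotic kinesins and of 18 other kinesins in each of 3 siCON (open grey) and 4 siYT libraries (filled orange), ordered by fold change. From KIF18B to KIF22 the siYT values lie above all siCON values, KIF23 and KIF20B overlap, and in the lower panel KIF24, KIF16B, KIF3B, KIF1B, KIF2A and KIF13B are separated upward (the first pair called) and KIFC3 downward.

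Of the 12 mitotic kinesins, 10 had each siYT library above each siCON library, an order found in 34.1% of all genes tested (68.7% were free of overlap in either direction). Within siYT, libraries A and B were both above C and D in 5 of the 9 called mitotic kinesins (29.3% of all genes). In the other kinesins the reverse order was common: A and B were both below C and D in 8 of 18 (21.85% of all genes) and above in 0. The closest replicates were siYT A and siYT B, whose mean squared difference was 2.64 times the counting variance, with 9.05 to 15.8 times for all other pairs within a group.

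The most abundant transport motors were not called. KIF5B, the widely expressed heavy chain of conventional kinesin (chromosome 10, 32297938 to 32345359), was at 263, 282 and 269 in siCON and 271, 275, 293 and 293 in siYT, and the groups overlapped (0.06 ± 0.05 SE, adjusted p = 0.287). Its neuronal relatives KIF5A and KIF5C were below the filter, at siCON means of 0.39 and 0.37 and siYT means of 0.66 and 0.35. KIF1C, a kinesin-3 that carries dense-core vesicles and integrins, was at 281 ± 15.8 and 280.5 ± 18.4 (adjusted p = 0.945). KIF13A, which moves recycling endosomes, was at 167 ± 8.49 and 172 ± 7.33 (adjusted p = 0.455).

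Of the 6 kinesin-3 members tested, 2 were called higher, the mitotic KIF14 and KIF16B. KIF16B, which draws early endosomes towards microtubule plus ends (chromosome 20, 16252749 to 16554078), was at 60.1, 58.9 and 59.2 in siCON and 88.9, 93.9, 89.6 and 99.2 in siYT. Its siCON values were nearly equal and the siYT values all higher, by 1.56-fold (0.64 ± 0.05 SE, adjusted p = 2.78e-08), just past the fold threshold, and it fell short of it once the trend of fold change on transcript length was removed (0.50). KIF1B, which carries mitochondria and synaptic vesicle precursors in neurons, was at 75.7, 78.2 and 76.0 in siCON and 96.2, 103, 97.4 and 108 in siYT, without overlap but under the threshold at 1.32-fold (0.40 ± 0.05 SE, adjusted p = 5.99e-06). KIF13B was at 20.7 ± 0.40 and 23.3 ± 1.31 (1.12-fold, adjusted p = 0.0314).

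The KIF3 motors of kinesin-2 work as heterotrimers in intraflagellar transport and elsewhere. KIF3B was at 113, 121 and 113 in siCON and 153, 155, 154 and 166 in siYT, all higher but only by 1.35-fold (0.44 ± 0.05 SE, adjusted p = 1.23e-06). Its motor partner KIF3A was at 23.7 ± 1.25 and 22.6 ± 0.60 (adjusted p = 0.366), and their accessory subunit KIFAP3, named for that role after its values were seen, at 39.1 ± 1.29 and 53.2 ± 1.48 (1.36-fold, adjusted p = 2.31e-06). KIF3C, which can replace KIF3B in the complex, was at 52.4, 42.3 and 48.9 in siCON and 36.0, 37.4, 38.1 and 44.5 in siYT, a difference of −0.29 ± 0.08 SE on the log2 scale (adjusted p = 0.00447) with siYT D inside the siCON range. Of the 3 kinesin-2 motors tested, 0 were called by limma. KIF3B and KIF3C had an unadjusted and an adjusted p under 0.05 but stayed under the threshold of 1.5-fold.

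KIFC3, a kinesin-14 that in epithelial cells is found where microtubules meet adherens junctions (chromosome 16, 57792129 to 57896957), was the only kinesin tested that was called lower. It was at 93.8, 76.2 and 88.8 in siCON, against 41.6, 38.0, 45.0 and 42.3 in siYT. The siYT values lay in a narrow band far under the siCON values (2.05-fold lower, −1.04 ± 0.07 SE on the log2 scale, adjusted p = 4.99e-09). Its relative KIFC2 was at 38.1, 33.5 and 46.4 in siCON and 28.8, 28.6, 37.3 and 38.8 in siYT, with overlap (−0.23 ± 0.12 SE, adjusted p = 0.0815). Kinesin-14 held KIFC1, called higher, and KIFC3, called lower, and KIFC1 went from 4.82% ± 0.19 of the KIFC3 signal in siCON to 34.3% ± 6.28 in siYT.

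KIF24, a kinesin-13 that depolymerizes microtubules at the mother centriole and restrains cilium formation (chromosome 9, 34252379 to 34329198), was the other kinesin called higher outside the mitotic set. It was at 0.77, 1.38 and 0.75 in siCON and 2.82, 3.80, 2.53 and 3.44 in siYT, without overlap, and 2.51-fold higher (1.33 ± 0.18 SE, adjusted p = 5.98e-06). Those are approximately 17 to 97 reads per library, and its log2 fold change was 0.80 with a pseudocount of 2. KIF2A, a kinesin-13 depolymerase left outside the mitotic set by name, was at 41.7, 40.6 and 41.0 in siCON. In siYT it was at 45.2, 47.6, 48.4 and 47.3, a small shift without overlap (1.14-fold, limma adjusted p = 0.00381). Of its exonic bases, 18.7% overlap DIMT1 on the opposite strand. KIF2C went from 12.2% ± 0.57 to 31.8% ± 4.13 of the KIF2A signal.

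KIF21A, a kinesin-4 that slows microtubule growth at the cell cortex, was at 54.5 ± 1.93 and 52.7 ± 3.77 (adjusted p = 0.488). KIF7, which regulates Hedgehog signalling at the tip of the primary cilium, was at 6.76 ± 1.2 and 6.67 ± 0.24 (adjusted p = 0.977), and its relative KIF27 at 5.43 ± 1.16 and 5.76 ± 0.62 (adjusted p = 0.549). In kinesin-3, kinesin-4, kinesin-13 and kinesin-14 the mitotic member was called higher, and the most abundant other member was not called or was called lower. Of the 13072 genes tested, 9493 were not called. Kinesin-13 and kinesin-3 also held a less abundant other member called higher, KIF24 (2.51-fold) and KIF16B (1.56-fold). KIF4A went from 7.06% ± 0.30 to 19.6% ± 2.32 of KIF21A. KIF26B, which lacks motor activity, was at 6.65 ± 0.71 and 5.58 ± 0.50 (adjusted p = 0.0615), and KIF9, a kinesin of cilia and flagella, at 2.10 ± 0.52 and 1.78 ± 0.13 (adjusted p = 0.308).

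Below the filter were KIF12, KIF17, KIF21B and KIF6 besides KIF5A and KIF5C. With no filter, where 12.1% of 16686 genes were called higher and 11.8% lower, KIF12 was called higher (0.51 ± 0.07 to 1.09 ± 0.14, log2 fold change 0.65, adjusted p = 0.000715) and KIF21B lower (0.66 ± 0.20 to 0.25 ± 0.09, −0.62, adjusted p = 0.00305). Both rest on few reads, approximately 10 to 34 and 3 to 18 per library. KIF6, KIF17, KIF5A and KIF5C were not called.

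Summed over members, the mitotic kinesins held 76.9, 78.5 and 84.7 in siCON and 158, 162, 149.7 and 154 in siYT, a ratio of means of 1.95. The other kinesins summed to 1309 ± 10.9 and 1373 ± 64.1, a ratio of 1.05. The mitotic share of the kinesin signal was 5.76% ± 0.27 in siCON and 10.2% ± 0.65 in siYT. The other kinesins supplied most of the kinesin signal in both groups.

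Per kilobase of annotated transcript, the scale on which genes can be set beside each other, KIF5B had the highest siCON mean level (46.3), followed by KIF1C (35.5), KIF13A (27.7) and KIFC3 (25.7). The library ranges of KIF5B, KIF1C and KIF13A did not meet in siCON, while those of KIF13A and KIFC3 did. In siYT KIFC3 (12.4) moved from rank 4 to rank 7 of the 35 kinesins with a length. KIF22 was the mitotic kinesin with the highest level in both groups (9.66 and 12.9 per kb). The called mitotic kinesins had siCON levels of 0.37 to 2.12 per kb and siYT levels of 1.15 to 5.94 per kb, so that KIFC1 went from rank 18 to rank 12 and KIF18B from rank 28 to rank 22. Mitotic kinesins had shorter transcripts than the other kinesins (median 3874 against 6205.5 bases).

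**Figure D4:**
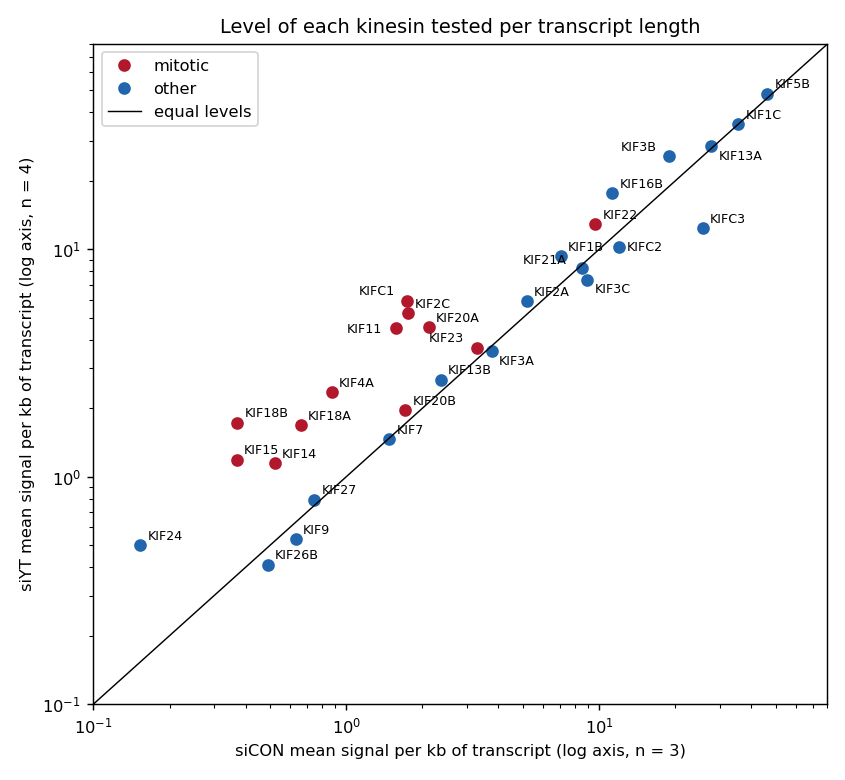
Mean TMM-normalized signal per kb of annotated transcript of each kinesin tested, siCON (n = 3) against siYT (n = 4), both axes on a log scale, with the line of equal levels. The called mitotic kinesins (red) lie above the line at siCON levels of 0.37 to 2.12, most other kinesins (blue) lie near it, KIF24 lies above it at 0.15 and 0.50, and KIFC3 lies below it at 25.7 and 12.4.

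mRNAs of proteins that work with the mitotic kinesins were mostly higher as well. Of 18 spindle partners, 15 were called higher and 0 lower (14.1% and 13.2% of all genes tested). By limma's unadjusted p under 0.05, 0 were lower, and the median log2 fold change was 1.06. MKI67, whose protein coats mitotic chromosomes, was at 18.1, 19.7 and 21.8 in siCON and 76.7, 73.6, 71.9 and 69.9 in siYT (3.62-fold). The microtubule-associated genes GTSE1 (1.98 ± 0.12 to 6.83 ± 0.77) and NUSAP1 (8.44 ± 0.89 to 24.3 ± 1.62) rose 2.94-fold and 2.78-fold. CIT, the citron kinase that KIF14 binds, rose 2.78-fold (3.33 ± 0.26 to 10.2 ± 1.10). Besides CENPE, the contractile ring scaffold ANLN (37.0 ± 1.87 to 48.3 ± 2.85, 1.30-fold, adjusted p = 4.78e-05) and KNSTRN (10.1 ± 0.38 to 11.2 ± 0.79, adjusted p = 0.141) were not called.

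Light chains and cargo adaptors of transport kinesins were called higher in 4 of 24 cases and lower in 0 by limma (median 0.19). Of all genes tested, 14.1% were called higher and 13.2% lower. By limma's unadjusted p under 0.05, 16 of the adaptor list were higher and 4 lower. An adjusted p under 0.05 was reached by 18 of the 24, beside 9101 of the 13072 genes tested. FYCO1, which links late endosomes and autophagosomes to kinesin-1, was at 19.14, 17.98 and 22.2 in siCON and 68.4, 65.1, 69.2 and 65.9 in siYT, 3.35-fold higher (1.74 ± 0.07 SE, adjusted p = 7.66e-12). Its groups were widely separated. The scaffold MAPK8IP2 (2.48 ± 0.40 to 7.60 ± 1.13), the kinesin-1 cargo receptor CLSTN1 (328 ± 10.2 to 706 ± 29.5) and the mitochondrial adaptor TRAK2 (57.9 ± 2.19 to 108 ± 2.77) rose 2.71-fold, 2.15-fold and 1.85-fold. MAP7D1 (183 ± 10.8 to 164 ± 17.7) and TRAK1 (118 ± 4.51 to 127 ± 1.13) were not called.

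Dynein, the motor that runs towards minus ends, and its activator dynactin had 26 members tested of 28. Of these, 3 were called higher and 1 lower (14.1% and 13.2% of all genes tested), with a median of −0.05. By limma's unadjusted p under 0.05, 6 were higher and 12 lower. In 13 every siYT value lay below every siCON value (34.7% of all genes tested), and in 6 above (34.1%). An adjusted p under 0.05 was reached by 18 of the 26, beside 9101 of the 13072 genes tested. DYNLT3, a dynein light chain (18.5 ± 1.60 to 37.8 ± 1.92), the cargo adaptor HOOK1 (42.1 ± 3.73 to 73.6 ± 4.42) and the light chain DYNLL2 (53.1 ± 2.15 to 84.0 ± 4.42) rose 2.01-fold, 1.74-fold and 1.57-fold. PAFAH1B1, the dynein regulator LIS1, fell 1.54-fold (179 ± 11.4 to 116 ± 4.17). The heavy chain DYNC1H1 was at 509.8 ± 24.4 and 537 ± 37.6 (limma adjusted p = 0.290). DCTN1, the dynactin subunit that binds microtubules, was at 190.4 ± 1.16 and 192 ± 5.31 (adjusted p = 0.830). The light chain DYNLL1 was at 227 ± 6.96 and 189 ± 21.4, with every siYT value below every siCON value. It stayed under the fold threshold at 1.20-fold (adjusted p = 0.00352).

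Tubulins form the track, and those called were all lower. Of 13 tested, 0 were called higher by limma and 4 lower (14.1% and 13.2% of all genes tested), with a median of −0.18. By limma's unadjusted p under 0.05, 2 were higher and 7 lower. In 6 every siYT value lay below every siCON value (34.7% of all genes tested), and in 2 above (34.1%). An adjusted p under 0.05 was reached by 9 of the 13, beside 9101 of the 13072 genes tested. TUBB3, a beta-tubulin best known from neurons, was at 77.8, 65.1 and 71.3 in siCON and 10.3, 10.5, 10.5 and 8.50 in siYT, 6.89-fold lower (adjusted p = 4.93e-13). TUBE1, the centriolar epsilon-tubulin (9.53 ± 0.28 to 4.51 ± 0.53), TUBB2A (26.7 ± 1.10 to 15.6 ± 1.04) and TUBB6 (161 ± 9.13 to 102 ± 5.38) fell 2.01-fold, 1.69-fold and 1.57-fold. TUBB, the most abundant, was at 463 ± 9.33 and 327 ± 16.5, under the fold threshold at 1.42-fold, and TUBA1C and TUBA4A were not called. Beta-tubulin genes share long stretches of sequence, so reads may be divided between them.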

How the data were processed

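RNA was taken from N/TERT2G keratinocytes after siRNA transfection (3 siCON and 4 siYT libraries) and made into libraries from polyadenylated RNA. According to the processing notes, reads were trimmed (cutadapt 1.18; the study also names Trimmomatic), aligned to hg19 (STAR 2.6.1) and quantified (Partek 8.0.19.0819). Genes under 8 reads were removed and gene totals scaled by TMM, so the deposited values are a normalized signal near CPM. Too few low values were whole multiples of a read (81.9% to 82.8% within 0.05), so no count model was used. No source used here states if counting used strand. A deposited table of the authors' own comparison (p-values, ratios, fold changes, group means) was not used.

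The 18478 entries were reduced to 16686 symbols by dropping 1792 repeats with equal values. Genes with a mean of at least 1 (13072) were tested on log2(value + 0.5) with limma 3.58.1 (R 4.3.3, statmod 1.5.0, empirical Bayes with a mean-variance trend, no covariate) with Benjamini-Hochberg adjustment over all of them, and called at an adjusted p under 0.05 and at least 1.5-fold, as in the study. The pseudocount makes folds of low genes too small. Values are mean ± SD. The script was tested on simulated data. Replicates carry only letters and may come from 1 plating, so that p-values cover only the spread among these libraries. Positions are on hg19, transcript lengths and G and C content are of Ensembl canonical transcripts, and promoters are from RefSeq (GRCh38.p14). Read numbers per gene are approximate, from the lowest value of each library.

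The members, the lists of partner genes and the motifs were chosen with earlier results of these data known. Each kinesin could be named. Of other lists, at most 4 called members (largest change) and 3 uncalled ones (highest mean) were named, besides genes stated as chosen after their values were seen. 1 gene that this rule would name is not reported here. Alternatives were other pseudocounts, filters and scalings, no trend, a replicate block, siYT A and B averaged, a length correction and leaving out each library.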

Additional observations from a re-analysis of the deposited data

Results flagged for a closer look

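In 2 of the 30 kinesins tested a single siYT library stood apart from the other 3 by Dixon's test, which chance alone does in about 1 in 20 groups of this size. KIF23 was lowest in siYT D, at 12.2, with the other siYT libraries at 13.8 to 14.0. KIF3B was highest in siYT D, at 165.5, with the others at 153 to 155. Neither kinesin was called with all libraries or with siYT D left out. For KIF23 the limma adjusted p was 0.0995 with all libraries and 0.0406 without siYT D. Its log2 fold change without siYT D was 0.20, under the fold threshold.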

How the results depend on the processing

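Under the alternatives run (17 or 18 for each), 29 of 30 kinesins kept their call, among them the 12 mitotic ones. The exception was KIF16B (0.50 with the length trend removed). The median of the mitotic kinesins tested was 0.97 with a pseudocount of 2, with 9 called, and 1.07 at a minimum mean of 5, where KIF15, KIF18A and KIF18B were no longer tested and 6 were called. The other kinesins had a median of 0.13 with equal totals and −0.12 with the length trend removed, 1 called higher at a minimum mean of 5 and with the length trend removed, and 2 called lower with no filter. Equal totals moved the median of all genes to 0.111, and 64.7% of 3621 calls were then upward, against 51.6%.

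Signs turned only for uncalled kinesins. With equal totals these were KIF3A (0.044), KIF1C (0.11), KIF7 (0.10) and KIF21A (0.062). With the length trend removed they were KIF20B (−0.026), KIF5B (−0.10), KIF13A (−0.12), KIF13B (−0.031) and KIF27 (−0.093). With siYT A and B averaged it was KIF1C (0.021). Leaving out 1 library gave −0.064 to 0.32 for KIF20B, −0.044 to 0.036 for KIF1C, −0.15 to 0.069 for KIF7 and −0.068 to 0.22 for KIF27. The cause was not tested.

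Whether the letters pair the libraries was not settled by correlation. Same-letter values were 0.16, 0.03 and 0.18. Closest to siCON A was siYT B at 0.18, to siCON B siYT D at 0.06, and to siCON C siYT C. With a replicate block, 3528 genes were called rather than 3579, and the kinesin counts stayed at 9, 2 and 1. Library siYT D has no siCON library of its letter, so the block took it out of the contrast. KIF20B was at −0.064 with the block, the same as with siYT D left out. Depth limits mainly KIF24, KIF18B and KIF15, with 17 to 32 reads in their lowest libraries.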
